A study of Mus musculus with 32 samples.

Results

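The cells described here are 2921 cells of the mouse dorsal telencephalon at embryonic day 12.5 (E12.5) that carried RNA of Neurod6 and Tbr1, transcription factor genes of postmitotic excitatory neurons of the cortex. They were taken from 40792 barcodes of 8 libraries that held at least 1000 unique molecular identifiers (UMIs, each the mark of a captured RNA molecule) and at least 500 genes, in a series of 145082 barcodes. A cell was selected when it held at least 1 UMI of Neurod6 and at least 1 of Tbr1, no UMI of the progenitor genes Sox2 and Pax6, at most 1 of Eomes (intermediate progenitors), none of Gad2 (inhibitory neurons) and at most 2 of Reln (Cajal-Retzius cells). The cells were thus chosen by the measured counts of these 7 genes, which are no results here, and any contrast of the selected cells with other barcodes is a description without a test.

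The first neurons of the cortical wall settle as the preplate, a thin layer beneath the pia. Later-born cortical plate neurons split it into the marginal zone above, where Cajal-Retzius cells secrete reelin, and the subplate below, which sends out the earliest cortical axons. Neurod6 and Tbr1 mark young glutamatergic neurons in general, so that preplate neurons and newly born deep-layer neurons can both pass the rule.

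All embryos were of strain C57BL/6J. Wild type (WT) embryos had 2 intact copies of Chd8, which encodes a chromatin remodelling protein, and Chd8+/- embryos (Chd8 het) had 1, in the germ line and therefore in every cell. Tissue of 4 litter- and sex-matched pairs per stage was dissected, its medial edge being trimmed off to leave no hippocampal anlage, and each embryo gave 1 library of 3′ single-cell RNA counts. The pairs are called M1 and M2 (males) and F1 and F2 (females). E12.5 libraries were used, and for 1 comparison those of E14.5, with 4 per genotype and stage. The 1352 WT cells came as 490, 233, 327 and 302 from M1, M2, F1 and F2, and the 1569 het cells as 323, 339, 481 and 426.

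E12.5 libraries held between 20210276 and 66499864 UMIs. The selected cells of het libraries M1, F1 and F2 were shallower, with medians of 5162, 3789 and 5294 UMIs per cell, than those of any WT library (7634, 8242, 8700 and 7630) and of het M2 (8671). Any 2 of these libraries shared between 22 and 62 barcode sequences, at most 1.08% of the smaller library. The M2 pair also carries another code in the labels than the other E12.5 pairs, and what that code stands for is not given in the sources used here.

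The selected cells carried neuronal genes that the rule did not use. The 15 genes that stood out most in every library included Syt4 and Rab3a (vesicle proteins), Islr2 (a membrane protein of growing axons), Sez6, Neurod2 (a neuronal transcription factor), Actl6b (the neuronal BAF subunit), Ina and Mapt (axonal cytoskeleton), Myt1l and Stmn2. Neurod2 stood at 712 CPM (UMIs of a gene scaled to 1 common total per library) ± 181 (SD, n = 8 libraries), against 66.0 ± 25.2 in all other kept barcodes. For Syt4 the values were 176 ± 42.8 and 11.6 ± 4.78 CPM, and the log2 ratio lay between 3.36 and 4.33 over the 8 libraries. Stmn2, a tubulin-binding protein of growth cones, stood at 2277 ± 397 CPM against 172 ± 62.8. The 15 were ranked by their lowest log2 ratio over the 8 libraries, so that all were higher in the selected cells in 8 of 8 by choice. The last of them, Bhlhe22, had a log2 ratio of 2.92 to 3.81. Most of the 15 did not set these cells apart from the cells with 3 or more Reln UMIs. Only Neurod2, Necab3 and Pcp4 had a higher mean in the selected cells. In the cells with 3 or more Reln UMIs, Islr2 stood at 1384 ± 148 CPM against 903 ± 82.6 and Ina at 894 ± 205 against 492 ± 167. Stmn2 stood there at 3055 ± 140 and Mapt at 342 ± 70.7 against 165 ± 68.2. Each of these 4 was higher than in the selected cells in 8 of 8 libraries.

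Markers of most other cell types were low. Of 13 interneuron genes other than Gad2, 12 were under 5 CPM and Lhx6, Lhx8 and Slc32a1 were at 0, and their summed level lay between 6.64 and 12.1 CPM per library, against 102 to 202 CPM in progenitors (Sox2 and Pax6 together at least 3 UMIs, no Eomes or Neurod6). In progenitors, too, 11 of the 13 were under 5 CPM. Microglia genes summed to at most 2.09 CPM, with Csf1r at 0, and endothelial and mural genes to between 4.56 and 46.1. Erythroid genes summed to 435 to 4932 CPM in WT and 40.9 to 14192 in het libraries. Radial glia genes summed to between 1021 and 1372 CPM, against 5667 to 7133 in progenitors. Cell-cycle genes summed to 286 to 506 CPM in WT libraries and to 532 to 684 in het ones, against 3446 to 3995 in progenitors. The selected cells therefore stood far from progenitors on both lists but not at 0, and the part that free RNA, doublets or newly born cells have in this was not tested. Genes of intermediate progenitors other than Eomes were not low. Their sum had a mean of 1469 CPM over the libraries, against 1266 in all other barcodes, 553 in progenitors and 900 in cells with 3 or more Reln UMIs.

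The label of preplate neurons was borne out in part. Of 15 genes listed for the preplate and subplate, 8 were under 5 CPM, among them Cplx3 and Moxd1 at 0 and Ccn2 at 0.168 ± 0.315 CPM, which are markers of the later subplate. Nr4a2, a transcription factor of the subplate, was lower in the selected cells (6.02 ± 1.15 CPM) than in progenitors (30.0 ± 4.96 CPM). Nxph4, a neurexin ligand of the subplate, stood at 139 ± 19.8 CPM against 1.83 ± 0.745 in progenitors, and Calb2 (calretinin, a calcium-binding protein of early-born neurons) at 98.3 ± 33.5 against 1.19 ± 0.722. Pcp4, a calmodulin regulator, reached 530 ± 111 CPM and St18, a zinc-finger gene, 39.6 ± 4.72 CPM. Genes of the corticofugal deep-layer neurons were also present, with Bcl11b (Ctip2) at 344 ± 46.2 CPM and Fezf2 at 211 ± 42.1.

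After each cell was thinned to 3000 UMIs, 2690 of the 2921 cells and 17891 of 18201 progenitors were deep enough to compare shares of cells with a UMI. Neurod2 was detected in 82.6% of the selected cells (median of the 8 libraries) and 0.968% of progenitors, and Bcl11b in 59.4% and 6.2%. Nhlh2, a helix-loop-helix factor, was found in 37.8% and 0.414%, Lhx9, a LIM homeobox gene, in 34.0% and 1.28%, and Nxph4 in 30.8% and 0.456%. At this depth Nhlh2, Lhx9 and Nxph4 were thus seen in roughly 1 in 3 selected cells, with medians of no more than 1.28% in progenitors, while Bcl11b was also found in some progenitors. Slc17a6 (the vesicular glutamate transporter VGLUT2) was found in 12.4% against 0.193%, Calb2 in 9.63% against 0.287%, and Ebf2 in 10.2% against 0.229%. For Fezf2 the shares lay closer together (39.2% against 33.9%, higher in the selected cells in 7 of 8 libraries). Crabp2 was likewise frequent in both, with 52.9% against 35.0%. Hbb-y, an embryonic globin of red blood cells that neither group should make, was found in 39.5% of the selected cells and 40.8% of progenitors, and its share was higher in the selected cells in 0 of 8 libraries. Without thinning the medians were 93.8% for Neurod2 and 15.1% for Calb2, at median depths per library of 3789 to 8700 UMIs in the selected cells and 5595 to 11477 in progenitors.

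At the Neurod6 limit, the 141 selected cells with a single UMI had 315 CPM of Neurod2 and 36.6 of Trp73, a p53 relative that marks Cajal-Retzius cells, and the 268 cells with none had 73.1 and 31.6. The 459 selected cells with a single UMI of Tbr1 had 558 CPM of Neurod2, and 439 cells that failed for having none had 235. The 735 cells at the Eomes limit of 1 UMI had 185 CPM of the proneural gene Neurog2, and the 335 cells with 2 had 239. At the Reln limit, 178 cells with 2 UMIs had 14.45 CPM of Trp73, and 86 cells with 3 had 33.6. A further 898 cells failed on Sox2 and Pax6 with 1 UMI of either, and had 662 CPM of Neurod2 against 746 in the selected cells. Only 9 cells that met the other thresholds failed on Gad2 with 1 UMI, and cells with more Gad2 were not counted.

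Within the selected cells, 2349 had no Reln and 572 had 1 or 2 UMIs. Genes of Cajal-Retzius cells followed Reln closely. Trp73 stood at 0.500 ± 0.721 CPM in cells without Reln, 7.81 ± 4.21 in cells with 1 or 2 UMIs and 75.8 ± 16.7 in the 318 cells with 3 or more, and Lhx1 at 1.34 ± 0.394, 12.7 ± 9.01 and 64.7 ± 18.7. Lhx5, Ebf3 and Cacna2d2 were ordered likewise, with 2.03, 12.4 and 80.6 CPM for Lhx5. Calb2 kept the same order at a higher level, from 68.0 ± 35.8 through 198 ± 57.8 to 416 ± 152 CPM, as did Cdkn1a (the cell-cycle inhibitor p21) with 18.9 ± 10.1, 65.0 ± 26.3 and 223 ± 90.3. These orders describe cells split by a gene of the rule, and deeper cells are more likely to show a Reln UMI.

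Of the other early genes, Lhx9 and Crabp2, the latter also frequent in progenitors, were nearly level across these groups. Lhx9 stood at 150 ± 22.2 CPM in cells without Reln, 163 ± 17.47 in cells with 1 or 2 UMIs and 149 ± 38.9 in cells with 3 or more, and Crabp2 (a retinoic acid carrier) at 360 ± 97.9, 398 ± 109 and 392 ± 99.3. Ebf1, a transcription factor also listed for Cajal-Retzius cells, was at 94.8 ± 15.4 CPM in cells without Reln and 200 ± 61.4 in those with 3 or more. Its paralogue Ebf2 was at 39.3 ± 13.2 and 76.6 ± 36.4, and as high in cells with 3 or more Eomes UMIs (70 ± 17). Meis2 went the other way, with 170 ± 21, 72.3 ± 25.5 and 47.4 ± 34.6 CPM, and so did the patterning factor Nr2f1 with 318 ± 81.5, 186 ± 42.1 and 120 ± 33.5. The early genes present in cells without Reln thus included Lhx9, Crabp2, Nhlh2 (188 ± 40.5 CPM), Nxph4 (126 ± 20.9) and Ebf1, while Trp73 and Lhx1 were near 0 there.

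**Figure D1:**
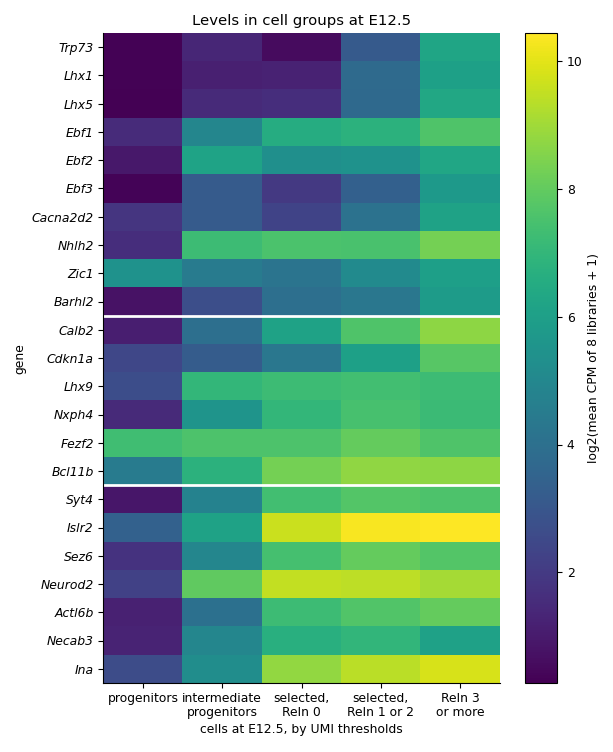
Mean level of 23 genes in 5 groups of E12.5 cells, as log2 of the mean CPM of 8 libraries plus 1 (colour). Columns run from progenitors to cells with 3 or more Reln UMIs, and rows hold Cajal-Retzius genes (top block), other early neuron genes (middle) and neuronal genes higher in the selected cells than in all other barcodes (bottom), several of which are as high or higher in the cells with 3 or more Reln UMIs. Trp73, Lhx1 and Lhx5 are dark in selected cells without Reln, whereas Lhx9, Nxph4, Nhlh2 and Ebf1 are bright there.

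The 735 cells with 1 Eomes UMI and the 2186 with none also differed. Cells with 1 UMI had 193 ± 72.5 CPM of Neurog2 against 107 ± 45.3, 500 ± 108 of Mfap4, an extracellular matrix gene of intermediate progenitors, against 243 ± 48.7, and 387 ± 225 of Hmgb2, a chromatin protein of cycling cells, against 179 ± 82.1. Mapt (tau) ran the opposite way, with 108 ± 54.0 CPM against 184 ± 74.7. Cells with an Eomes UMI thus held more RNA of the preceding progenitor and less of an axonal gene, in a split made by a gene of the rule.

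By the ratio of variance to mean, which tends to be larger for abundant genes, single cells differed most in Actb (cytoplasmic beta-actin). Among 4100 genes with a mean of at least 0.1 UMI per thinned cell, the ratio of variance to mean over cells, taken within libraries, had a median of 1.02, which is close to counting noise, and was 27.8 for Actb (16.5 to 52.5 over libraries). The thinned cells held 9 Actb UMIs at the lowest decile, 17 at the median and 90 at the highest, with a maximum of 240, while the library medians lay between 14 and 20. A minority of cells therefore held several times the usual amount, in libraries of both genotypes. The next genes were Malat1 (10.4), Nnat (5.95), Tmsb4x (5.67), Tuba1a (4.49), Cdkn1a (4.37), Ndn (4.29), Ube2c (4.05), Hmgb2 (4.02), Calb2 (3.90), Tmsb10 (3.67) and Sox11 (3.44). Cdkn1a was absent in 95.8% of the thinned cells and reached 23 UMIs in a single cell, so that 5% of the cells held all of its UMIs. For Calb2, 89.1% of the cells had none and the top 5% held 75.2% of its UMIs, and for the mitotic gene Ube2c the values were 77.1% and 58.6%. Such genes mark a few cells strongly, whereas Lhx9 (1.25) and Nxph4 (1.24) were spread more evenly.

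Pairs of early genes overlapped to different degrees. Ebf1 and Ebf2 were found together in 3.06% of thinned cells where the product of their shares is 2.05%, with a ratio of 1.25 to 1.76 over the libraries. Calb2 and Bcl11b were together in 7.52% of cells against 6.64% (ratio 1.08 to 1.2), and Lhx9 and Nhlh2 in 14.8% against 13% (1.06 to 1.25). Ebf2 and Calb2 were together in 1.99% against 1.14%, but their ratio ran from 0.922 to 2.31, and Ebf2 with Bcl11b gave 5.91% against 6.09% (0.904 to 1.03). No pair of these genes excluded the other, and since all cells come from 8 libraries these shares are given as descriptions.

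The share of kept barcodes that passed the rule did not separate the genotypes. It was 8.53, 5.36, 6.60 and 5.24% in WT libraries M1, M2, F1 and F2, and 7.37, 6.53, 11 and 7.05% in het libraries, with 95% Wilson intervals for counting error of, for example, 4.69 to 5.85% in WT F2 and 10.1 to 12% in het F1. The groups overlapped, at 6.43% ± 1.53 in WT and 7.99% ± 2.05 in het (SD, n = 4), and het was higher in 3 of 4 pairs (two-sided exact permutation test, p = 0.286, smallest possible p 0.0286). Thinned to 3000 UMIs, the shares were 10.0, 8.10, 9.71 and 6.94% in WT and 8.14, 11.8, 10.6 and 8.01% in het. Their difference was 0.942 percentage points (exact permutation test, p = 0.400), and the exact sign-flip test over the 4 pairs gave p = 0.500 where 0.125 is the smallest possible. Thinning left out 536, 1261 and 528 barcodes in het M1, F1 and F2 and none in WT. In such data fewer cells of a type and fewer RNA molecules captured per cell cannot be told apart. The depths themselves, 8052 ± 519 median UMIs in WT and 5729 ± 2076 in het, gave p = 0.114 (exact permutation test, n = 4).

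**Figure D2:**
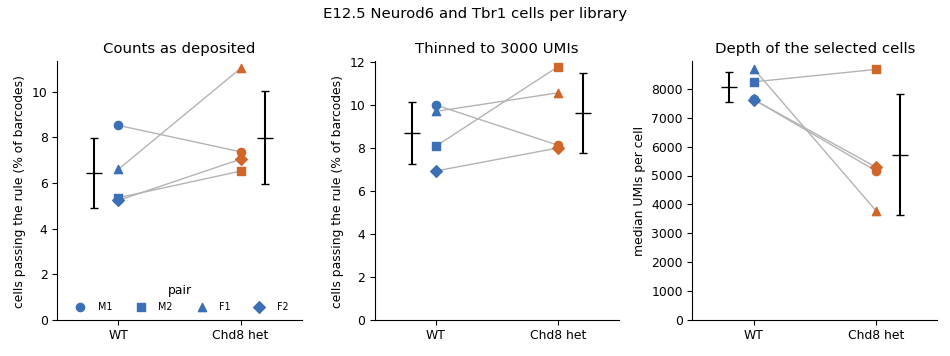
Share of kept barcodes that passed the rule at E12.5 in each library, with counts as deposited (left) and thinned to 3000 UMIs (middle), and the median UMIs of the selected cells (right). Points are libraries, grey lines join the embryos of a pair, and black bars are the mean ± SD of 4 libraries. The shares of the genotypes overlap, and 3 of 4 het libraries lie below every WT library in depth.

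To ask which features belong to E12.5, the same thresholds were applied to 8 libraries of E14.5, where 10178 cells passed, at 26.8 to 37.6% of barcodes per library. Counts were summed per library and tested with edgeR's quasi-likelihood test over 16 libraries, with Benjamini-Hochberg adjusted p-values over 11471 genes. Levels from here on are CPM scaled by edgeR's library factors, per library in the order M1, M2, F1, F2, and changes are log2 fold changes of E14.5 over E12.5 with their standard error (SE). The same thresholds hold more cell types at E14.5, when deep-layer neurons abound, so a change of level in a type and a change of the mixture cannot be told apart, and nor can stage and litter. In WT 1704 genes were higher and 1620 lower at E14.5, in het 2629 and 2492, and both genotypes called 1512 genes higher (13.2% of those tested) and 1378 lower (12%). These shared calls made up 88.7% and 85.1% of the WT calls and 57.5% and 55.3% of the het calls.

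Among genes of at least 50 CPM in WT at E12.5 that were called in both genotypes, the 12 with the largest falls were Crabp2, Hba-x, Hbb-y, Calb2, Tmem163, Synpr, Gm28050, Ebf1, Lhx9, Gm2694, Galnt14 and Cbln2. Crabp2 stood at 241, 321, 345 and 507 CPM in WT at E12.5 and at 3.33, 4.30, 2.69 and 4.69 at E14.5. In het it went from 409.9, 247, 497 and 504 to 2.92, 2.19, 2.47 and 4.82. No library of one stage came near one of the other, and the fall was by 6.53 on the log2 scale in WT (SE 0.30, edgeR adjusted p = 8.53e-12) and by 7.05 in het (SE 0.31). Crabp2 lies on chromosome 3 (87948666 to 87953376, GRCm38). Lhx9 went from 143, 136, 153 and 189 CPM to 13.7, 13, 10.2 and 8.73 in WT, and fell by 3.75 (SE 0.20, edgeR adjusted p = 5.19e-11). Lhx9 stayed detectable at E14.5, where Crabp2 was nearly gone.

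All 10 tested Cajal-Retzius genes were lower at E14.5 in both genotypes, and none was higher, with a median log2 change of -4.89 in WT and -4.36 in het, where the median over all genes was 0.02 and 0.04. Some of them passed the filter on low counts through E12.5 alone, so that only a fall could be called. Among these were Ebf2, Ebf3 and Barhl2, at 0.048, 0.146 and 0.242 CPM in WT at E14.5. Setting Lhx1, at 0 in WT at E14.5, to a bound of 3 UMIs left the WT median at -4.89. The list was chosen with earlier results known. Ebf1 went from 81.7, 110.1, 95.1 and 122 CPM to 5.38, 2.93, 5.21 and 10.8 in WT, a fall by 4.06 (SE 0.31, edgeR adjusted p = 8.97e-09). Ebf2 had 477 UMIs (WT) and 342 (het) at E12.5 but 3 and 4 at E14.5, although the summed cells held several times more UMIs then. Nhlh2 went from 154, 150.0, 166 and 233 CPM to 20.8, 18.7, 17.47 and 20.4, a fall by 3.18 in WT (SE 0.19, edgeR adjusted p = 2.72e-10) and by 3.46 in het. Lhx1 had 43 UMIs (WT) and 34 (het) at E12.5 but 0 and 3 at E14.5. When only cells with neither Reln nor Eomes UMIs were used at both stages, a choice made after seeing the data, 5 of these genes were still tested and all 5 were lower in both genotypes. Genes too low in those cells at both stages dropped out of the test.

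Of 10 tested preplate and subplate genes, 5 fell and 3 rose. Calb2 went from 89.8, 71.8, 155 and 121 CPM to 3.97, 2.93, 0.336 and 1.60 in WT, and fell by 5.45 (SE 0.40, edgeR adjusted p = 5.01e-09). Nxph4 went from 132, 160.5, 142 and 141 CPM to 23.2, 28.2, 23.4 and 21.3, a fall by 2.58 (SE 0.14, edgeR adjusted p = 7.94e-11). St18 fell by 1.69, Pcp4 by 1.24 and Tmem178 by 0.33. The stage groups of Calb2, Nxph4 and Pcp4 did not overlap in WT, but only Calb2 was reduced to a few CPM. The 3 that rose were Nr4a2 (1.56, at 3.49 to 7.29 CPM in WT libraries of E12.5 and 6.72 to 29.6 at E14.5), Lmo3 (2.73) and Hs3st4 (3.71), all from low levels at E12.5. Synpr (synaptoporin) fell by 4.59, Tmem163 by 5.38, Cbln2 (a synapse organizer) by 3.22 and Galnt14 by 3.47 in WT, with edgeR adjusted p-values between 3.97e-12 and 1.95e-08. The long noncoding RNA genes Gm28050 and Gm2694 fell by 4.33 and 3.57. Gm2694 overlaps Cbln1 transcribed the other way, and whether counting kept strands is not given in the sources used here, so reads of the pair cannot be told apart.

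Genes of cell position and area moved mostly down, with 9 of 16 lower and 3 higher (median -1.53 in WT). Emx2, a homeobox gene high caudally and medially, went from 82.7, 70.3, 94.7 and 95.5 CPM to 14.9, 12.1, 13.8 and 12.7 in WT, a fall by 2.69 (SE 0.14, edgeR adjusted p = 3.71e-11). Etv1 fell by 4.50 and the ephrin Efna5, from the guidance list, by 3.31. Meis2 went the other way, from 177, 136, 145 and 144 to 426, 409, 424 and 411 CPM, a rise of 1.47 (SE 0.10, edgeR adjusted p = 1.82e-09).

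Deep-layer genes were higher at E14.5 in 9 of 11 cases, with a median of 0.82 in WT and 1.18 in het, but the size differed by gene. Bcl11b, which specifies subcerebral projection neurons, was abundant at both stages, with 426, 314, 383 and 349 CPM against 591, 634, 674 and 526 in WT (0.72, SE 0.11, edgeR adjusted p = 8.89e-05). Fezf2 was likewise there from the start, at 265, 220.3, 264 and 225 against 415, 487, 322 and 339 CPM (0.68, SE 0.15, edgeR adjusted p = 0.00195). Sox5, which times the birth of deep-layer neurons, rose further, from 116, 91.7, 89.1 and 70 to 494, 564, 434 and 426 CPM (2.38, SE 0.17, edgeR adjusted p = 4.02e-09). Ldb2, a LIM cofactor of layer 5, had 13 (WT) and 3 (het) UMIs at E12.5 but 3192 and 3167 at E14.5, when WT libraries held 65.5, 81.8, 70 and 75.4 CPM. Fezf1, the paralogue of Fezf2, was the 1 gene of the list that fell, with 74 and 50 UMIs at E12.5 and 1 and 0 at E14.5. Of 12 upper-layer and callosal genes, 7 were higher and 1, Lmo4, was lower.

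Among the genes that define glutamatergic identity, 4 of 10 tested were lower and 1 was higher. Slc17a6 fell from 51.6, 36.9, 46.5 and 57.5 to 18.0, 17.1, 16.1 and 14.4 CPM in WT (-1.55, SE 0.16, edgeR adjusted p = 5.05e-07), and Neurod1, which acts before Neurod2 and Neurod6 in the same cascade, by 1.28. Genes of the newborn neuron were mixed, with 7 of 16 higher and 6 lower. The reelin signalling genes Dab1 (2.36), Lrp8 (0.99) and Vldlr (1.45) were among those that rose, and Neurog2 and Nhlh1 among those that fell.

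Genes of the synapse were called higher more often than lower at E14.5. Of 21 synapse and vesicle genes 13 were higher and 1 was lower, and of 20 channel and receptor genes 9 were higher and 2 lower. Grin2b, an NMDA receptor subunit, went from 11.7, 7.47, 12 and 13.8 to 59.5, 64.7, 88.4 and 77.2 CPM in WT (2.66, SE 0.23, edgeR adjusted p = 2.84e-08), while the kainate receptor Grik2 fell by 2.48. Of 28 guidance and adhesion genes 11 rose and 4 fell, with Cntn2 up by 1.71 and the netrin receptor Dcc down by 0.63. The 20 axonal cytoskeleton genes had 1 called higher (Mapt, 0.93) and 3 lower, and Tuba1a differed by -0.01 (SE 0.12, edgeR adjusted p = 0.954). The neuronal tubulin Tubb3 fell by 0.40.

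With the same limit of 50 CPM, set at E14.5, the 12 genes that rose most were Sla, Ldb2, Opcml, Nin, Chl1, Nav2, Sybu, Ndrg1, Ntm, Hivep2, Lrrtm3 and Rlbp1. Sla, an adaptor protein gene on chromosome 15 within the span of Tg on the other strand, had 1 UMI (WT) and 0 (het) at E12.5 and 52.5, 57.6, 59.1 and 60.9 CPM in the WT libraries of E14.5. Opcml, a GPI-anchored adhesion molecule, rose from 3.56, 4.98, 0.997 and 2.43 to 113, 133, 132 and 101 CPM in WT (5.36, SE 0.23, edgeR adjusted p = 3.97e-12). Its relative Ntm rose by 3.76 and the L1-family adhesion molecule Chl1 by 4.32. The stage groups of each of the 12 did not overlap in either genotype, which a choice by the largest called change favours.

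**Figure D3:**
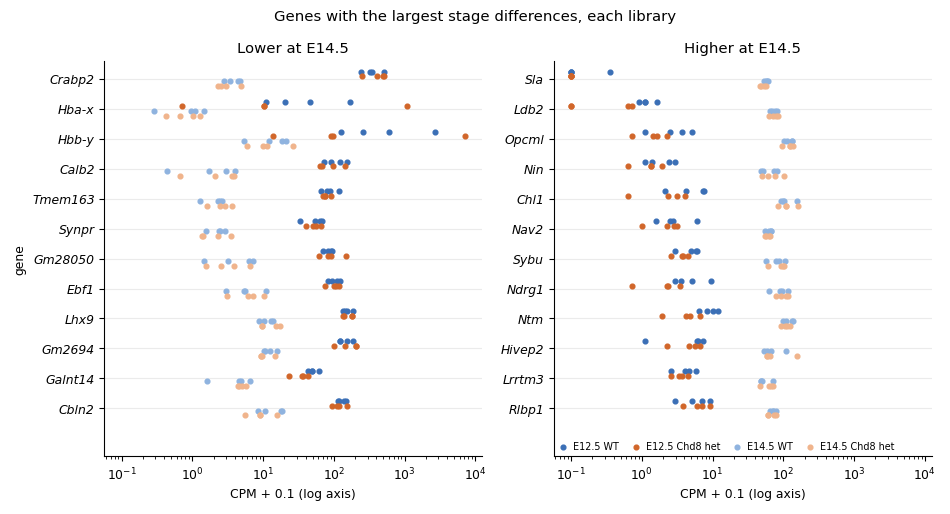
Level of the 12 genes that were lower (left) and the 12 that were higher (right) at E14.5 by the largest amounts, as CPM plus 0.1 on a log axis. Each point is a library, in 4 colours for genotype and stage. The stages are apart for every gene except Hba-x and Hbb-y, where het M1 of E12.5 (0.616 and 13.6 CPM) lies among the E14.5 libraries, and het M2 of E12.5 is highest (1083 and 7117 CPM).

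Progenitor-associated genes were lower at E14.5 as well. Of 11 cell-cycle genes 10 were lower in both genotypes (median -1.50 in WT), of 7 genes of intermediate progenitors 5 (-1.63), and of 12 radial glia genes 7, with 2 higher. Ube2c went from 113, 150.0, 80.1 and 128 to 16.7, 19.1, 42.2 and 39.5 CPM in WT (-2.02, SE 0.36, edgeR adjusted p = 0.000311). The summed cell-cycle level given above shows how much of this RNA the selected cells carried at E12.5, and its part in the stage calls was not tested. The temporal regulators Hmga2 (-3.18) and Lin28b (-1.66) fell and Nfix (1.73) and Nfib (0.92) rose, with 6 of 14 of that list higher and 2 lower. Cdkn1a was the 1 of 11 p53 target genes called in both genotypes, from 50.9, 32.4, 31.2 and 33.2 to 2.82, 2.67, 2.86 and 2.91 CPM in WT (-3.72, SE 0.22, edgeR adjusted p = 2.70e-10). Chd7, a relative of Chd8, fell from 85.7, 53.8, 66.2 and 89.0 to 18.3, 18.8, 10.8 and 14.1 CPM (-2.23, SE 0.18, edgeR adjusted p = 1.65e-08), whereas Chd3 (0.66) and Chd9 (0.61) rose and the other 6 remodellers of the family, Chd8 included, were not called in both genotypes. Of 23 neuronal RNA-binding proteins 4 were higher, among them Rbfox1 (3.34), and 5 lower, among them Nova1 (-1.99), near the shares over all genes (13.2% higher and 12% lower).

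Of 8 genes of red blood cells, the globins Hba-x, Hbb-y and Hbb-bh1 were called lower in both genotypes and the other 5 were not, with Hbb-bs at 0.69 in WT and 2.84 in het (edgeR adjusted p = 0.0524 in het). The E12.5 levels of Hbb-y were 256, 602, 2689 and 127 CPM in WT, and those of het were 13.6, 7117, 98.2 and 92.2 CPM. In WT F1 a single cell held 7444 Hbb-y UMIs, 92.0% of that library's total, and in het M2 a pair of cells held 90.1%. In the other 6 libraries no cell held 100 or more, and the top cell held between 1.60 and 4.55% of the UMIs. Hba-x was not counted by cell, and the part of free RNA in these calls was not tested.

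**Figure D4:**
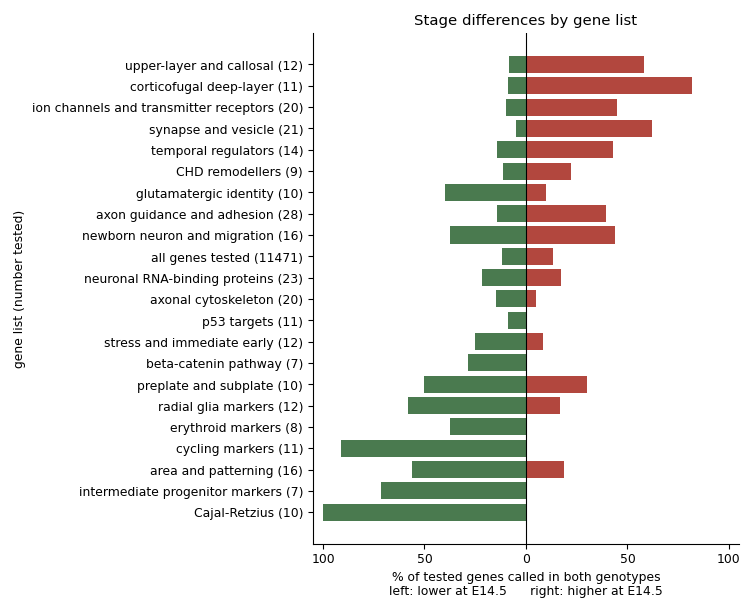
Share of the tested genes of each list that were called lower (left, green) or higher (right, red) at E14.5 in both genotypes, for lists with at least 7 tested genes, with the number tested in brackets. Over all 11471 genes 12% were lower and 13.2% higher. All 10 Cajal-Retzius genes and 10 of 11 cell-cycle genes lie on the left, and 9 of 11 deep-layer genes on the right. Some of the Cajal-Retzius genes were tested only through their E12.5 level.

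The targeted gene was checked before the genotypes were compared. Chd8, on chromosome 14 (52198151 to 52257780, minus strand, GRCm38), stood at 56.2, 49.3, 46.9 and 55.9 CPM in the selected cells of WT and at 40.7, 40.4, 24 and 43.6 in het. The groups did not overlap and het was lower in 4 of 4 pairs. The log2 change was -0.48 (SE 0.20), with an edgeR adjusted p of 0.311, or 0.0386 with the pair as a block. The labels give no position for the deleted part, so that 3′ counts need not show the loss of the allele in full.

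Between genotypes at E12.5, 1 of 11471 genes (0.00872%) passed an edgeR adjusted p of 0.05 without the pairs in the model, where 1542 had an unadjusted p below 0.05. It was Gfra2, the receptor of the GDNF-family ligand neurturin (chromosome 14, 70890120 to 70979838). The WT libraries held 8, 6, 8 and 6 UMIs of it and the het libraries 0, 0, 0 and 0. Against a floor of 3 UMIs over the group, het was at least 7.53-fold lower (edgeR adjusted p = 0.0433), lower in 4 of 4 pairs. All other E12.5 barcodes held 68 UMIs in WT and 36 in het (0.304 and 0.246 CPM), and at E14.5 the cells passing the rule had 1.18 to 2.24 CPM in WT and 1.82 to 2.47 in het. The test of the difference between stages gave an edgeR adjusted p of 0.0481 without the pairs in the model. With the pair as a block no gene was called in that test. The genotype call at E12.5 rests on 28 UMIs and was lost when any one of the libraries WT M1, F1 or F2 or het M1, F1 or F2 was left out (edgeR adjusted p between 0.0656 and 0.168). No gene was called either when E14.5 WT M2, E14.5 WT F2 or any E14.5 het library was left out, and with barcodes over 2 times the median UMIs left out (edgeR adjusted p = 0.0628).

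With the litter- and sex-matched pair as a block, 232 genes were higher in het (2.02% of those tested) and 170 lower (1.48%), against 1 without it. The block fit on the 8 E12.5 libraries alone, added after seeing the data, called none, where 1702 genes had an unadjusted p below 0.05. Among genes higher in 4 of 4 pairs whose mean log2 CPM was 4 or more, the 12 with the largest rise under the block included the cell-cycle genes Spc25, Pbk, Rrm2, Hmgb2, Smc2, Ube2c and Cdca8 and the immediate early gene Junb. Rrm2, a subunit of ribonucleotide reductase, stood at 42.5, 69.3, 39.2 and 49.0 CPM in WT and 98.0, 90.4, 172 and 108 in het, so the groups did not overlap. Its log2 change was 1.24 (SE 0.22), with an edgeR adjusted p of 0.0705 without and 0.0134 with the block. Ube2c stood at 113, 150.0, 80.1 and 128 in WT and 264, 168, 252 and 197 in het (0.91, SE 0.35, edgeR adjusted p = 0.287 without and 0.0170 with the block). Gadd45g, a differentiation gene of newborn neurons, gave 599, 379.7, 540.2 and 644 against 1129, 495, 1144 and 844 CPM (0.74, edgeR adjusted p = 0.191 and 0.0134), with het M2 inside the WT range. Neurog2 also overlapped between genotypes (0.77, edgeR adjusted p = 0.179 and 0.0170).

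The largest falls in het under the block included those of Meg3, Pcnx, Ntm, Rspo3, Prkce, Galnt17, Mapt, Jph4, B230334C09Rik, Srgap1 and Fat4. Gnao1, the neuronal G protein alpha subunit, stood at 111, 101, 99.1 and 106 CPM in WT and 57.9, 84.6, 50.2 and 64.3 in het (-0.68, SE 0.12, edgeR adjusted p = 0.0705 without and 0.0134 with the block). Sv2a, a synaptic vesicle protein, gave 43.8, 46.8, 53.2 and 54.6 against 29.0, 35.2, 26.7 and 29.7 (-0.70, SE 0.14, edgeR adjusted p = 0.111 and 0.0134). Mapt stood at 224, 202, 239.7 and 212 against 96.2, 187, 72.5 and 106 CPM (-0.91, SE 0.23, edgeR adjusted p = 0.156 and 0.0170), and the imprinted noncoding RNA gene Meg3 at 294, 308, 289 and 348 against 109, 259, 69.8 and 142 (-1.08, edgeR adjusted p = 0.145 and 0.0134). For all 4 genes the groups did not overlap, and het M2 lay nearest to WT. These 4 and Rrm2 were chosen for a low p or a large change with the same direction in 4 of 4 pairs, which favours groups that do not overlap. How many of all genes had groups that do not overlap was not counted. Het M2 is the only het library as deep as the WT libraries.

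The summed cell-cycle levels given above did not overlap between genotypes. Nor did the summed levels of area and patterning genes, which were lower in het (1785 to 2060 CPM in WT and 1323 to 1720 in het). In progenitors, too, the area and patterning sums did not overlap (2373 to 2609 CPM in WT and 1774 to 2338 in het). Summed levels of intermediate progenitor genes in the selected cells were 983 to 1478 CPM in WT and 1138 to 2171 in het and did overlap. By list, 7 of 11 cell-cycle genes were higher in het under the block and none lower, with a median log2 change of 0.60 without the block where all genes had -0.02. Of 7 intermediate progenitor genes 4 were higher (median 0.38), and of 20 cytoskeleton genes 1 (Stmn1) was higher and 6 were lower (-0.21). Stress and immediate early genes gave 4 higher and 1 lower of 12. No gene of the preplate and subplate (median -0.04), Cajal-Retzius (-0.12) or deep-layer (-0.37) lists was called. With 10, 10 and 11 genes tested, the shares over all genes (2.02% higher, 1.48% lower) leave few or no calls in such lists. Of the 11 deep-layer genes 1 had a change above 0, where 5380 of all 11471 genes did. Other neuronal lists leaned the same way, with 1 of 21 synapse and vesicle genes and 5 of 28 guidance and adhesion genes above 0. Of the cell-cycle genes 11 of 11 were above 0. Lhx9 (0.03), Ebf1 (-0.03), Nxph4 (-0.03), Crabp2 (0.23) and Calb2 (-0.26) were not called, with SEs between 0.14 and 0.32.

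Depth moved with these differences. In 3 of 4 pairs the het cells were shallower, and those are the pairs with the larger differences in Rrm2, Ube2c, Mapt and Gnao1. For Gadd45g the pairs M2 and F2 differed by about the same fold. Each cell was then thinned to 3000 UMIs and the rule applied again to the thinned counts, so a partly different set of cells passed. Het M2 gave 613 cells rather than 339, het M1 313 rather than 323 and WT F1 481 rather than 327. In these cells the median of the cell-cycle list was 0.25 and, with the block, 1 of its 11 genes was called, a setting added after seeing the data. Thinned in the same way, the intermediate progenitor list had a median of 0.19 and 2 of 7 genes higher, and the cytoskeleton list -0.19 with 1 gene higher and 6 lower of 20, as with all UMIs. Of all 10008 genes tested in this setting with the block, 162 were higher and 100 lower. Thinned, Rrm2 differed by 0.55, Ube2c by 0.44, Mapt by -0.74 and Gnao1 by -0.63. The 1 gene called then without the block was Krt10. With all UMIs it stood at 50.6, 62.8, 60.8 and 80.5 CPM in WT and 115, 82.4, 141 and 123 in het. Its log2 change was 0.86 (SE 0.15, edgeR adjusted p = 0.0705) with all UMIs and 1.04 (edgeR adjusted p = 0.00749) thinned. In all other E12.5 barcodes Krt10 was also higher in het, at 59.0 CPM in WT and 87.8 in het. With 3 of 4 het libraries shallow, depth per cell and genotype cannot be told apart in these data. Thinning does not restore cells that failed to reach the thresholds, and it lets in cells that were over a limit at full depth. The M2 pair, whose het cells were not shallower, also carries another code in the labels, so that depth and this code cannot be told apart either.

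**Figure D5:**
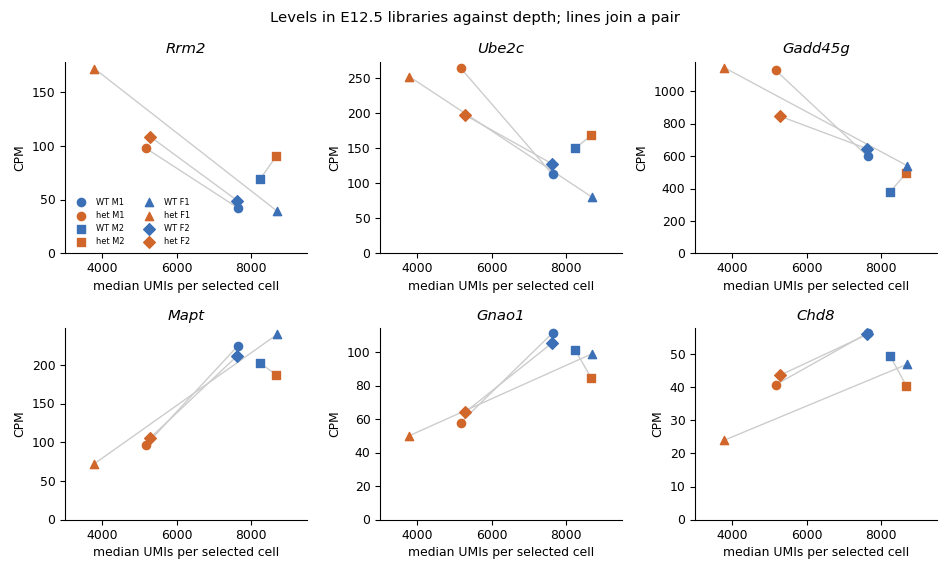
Level (CPM, from 0) of 6 genes in the selected cells of each E12.5 library against the median UMIs per selected cell. Blue is WT and orange het, shapes are pairs and grey lines join them. The 3 shallow het libraries hold the highest Rrm2, Ube2c and Gadd45g and the lowest Mapt and Gnao1, and het M2, at 8671 UMIs, is the het library nearest to WT for these 5 genes but not for Chd8.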

How the data were processed

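The authors deposited UMI counts per gene and barcode, not normalised. Per the submitters' processing notes, the tools named were Cell Ranger, STAR 2.7.9a and STARsolo and the build mm10; how cells were called is not given in the sources used here. Each of the 32 libraries lists 32285 genes. Doublets were not removed and free RNA was not modelled. Counts of the selected cells were summed per library, filtered with filterByExpr and fitted with edgeR 4.0.16 (TMM, quasi-likelihood, R 4.3.3) over 16 libraries in 4 groups, called at an adjusted p under 0.05. DESeq2 1.42.0 was an alternative. The pairs come from the design text, and a pair was read from sex and replicate number in the titles. Deviations of same-named WT and het samples correlated at 0.0784 to 0.126 at E12.5 and 0.528 to 0.670 at E14.5, other WT and het samples at -0.1375 to 0.0709 and -0.608 to 0.5985, so that E14.5 WT M2 was nearer to het M1 (0.5985) than to its own partner (0.5276). Thinning drew UMIs without replacement to 3000. For shares and fits the rule was applied to the thinned counts, whereas for detection and variation the cells selected at full depth were kept. Named genes were the 12 with the largest called stage change in each direction shared by both genotypes (at least 50 CPM), the 12 with the largest called genotype change (mean log2 CPM of at least 4, same direction in 4 of 4 pairs; or the 5 with the lowest p), the 15 highest over other barcodes, the 12 most variable, and up to 4 called genes of each of 26 lists; other genes named were chosen after their values were seen, and some that the rule names are not reported here. The members and lists were chosen with earlier results of these data known. Positions are GENCODE M21. P-values measure spread between single embryos. Intervals and floors cover counting error only.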

Additional observations from a re-analysis of the deposited data

Results flagged for a closer look

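In 162 groups of 4 libraries, the highest or lowest value was tested for a gap to the rest that is large for the group's range, a test that chance passes in about 1 of 20 groups, and 10 were marked. At E12.5, WT M1 held the only Sla UMI (0.254 CPM, the others 0). One het library, M2, stood apart for Hba-x (1084 CPM, the others 0.616 to 10.4) and Hbb-y (7118 CPM, the others 13.6 to 98.2), the library with a pair of cells full of globin UMIs. Het F1, the shallowest library, was low in Chd8 (24 CPM, the others 40.4 to 43.6). WT M2 was high in Spc25 (40.4 CPM, the others 17.8 to 21.1) and WT F2 in Gm9803 (21.5 CPM, the others 14.9 to 15.8). At E14.5, WT F1 was high in Chl1 (157 CPM, the others 92.4 to 101), WT M2 in Lrrtm3 (70.6 CPM, the others 47.7 to 49.5), het F1 in Hivep2 (158 CPM, the others 58.9 to 64.4) and het F2 in Gm2694 (14.47 CPM, the others 9.30 to 9.5). Without het F1 the log2 change of Chd8 was -0.31 (edgeR adjusted p = 0.737). The genotype difference of Gfra2 differed between E12.5 and E14.5 without the pairs in the model (edgeR adjusted p = 0.0481), resting at E12.5 on 28 WT UMIs against 0. With the pair as a block no gene was called in that test.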

How the results depend on the processing

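The count of genes called between genotypes at E12.5 (1) moved most. It was 402 with the replicate block and 148 by DESeq2 (114 higher and 34 lower in het, adjusted over 2573 genes rather than 11471, and 100 of them among the 402). It was 108 without a filter on low counts, 5 with all 32 libraries and 338 without the M2 pair, and 262 thinned to 3000 UMIs with the block (added after seeing the data). It was 0 with the E12.5 libraries alone, with them and the block (added after seeing the data), with barcodes over 2 times the median left out, with Reln and Eomes at 0, and with Neurod6 and Tbr1 of at least 2 UMIs, where 1528, 1702, 1479, 1391 and 1299 genes had an unadjusted edgeR p below 0.05. Leaving out 1 library gave 0 to 483 genes for E12.5, with 483 without het M2, 8 without WT M2 and 0 without any other E12.5 library, and leaving out an E14.5 library gave 0 to 2. The count for genotype by stage (1) was 0 with the block, by DESeq2, without barcodes over 2 times the median, and thinned to 3000 UMIs, and in 2 settings added after seeing the data (thinned with the block, and Reln and Eomes at 0), 4 without a filter, and 0 to 10 without 1 library (10 without het M2, 1 without E14.5 WT M1, 0 otherwise). The 0 counts had 635 to 1892 genes at an unadjusted edgeR p below 0.05 under these settings with all libraries. The cause of these moves was not tested. Stage calls kept within 1.5 times of 3324 in WT (2570 to 3571) and 5121 in het (4048 to 5270) under every setting run, single libraries left out included, and of 383 alternatives for the 24 named stage genes 382 kept direction and call; Hba-x lost its call without Reln and Eomes (edgeR adjusted p = 0.0666). The share of selected cells, 0.942 points higher in het, turned to -0.0278 when cells were thinned to 5000 UMIs, and leaving out 1 library gave 0.219 to 1.48 (exact permutation p between 0.229 and 0.8). With the pairing, the exact sign-flip p was 0.500 for 0.942. Depth limits genes under about 3 UMIs in a library group, such as Sla and, in het, Gfra2 at E12.5, to counts there.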
